A study of Mus musculus with 2 samples.

Results

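The S100 proteins and galectins examined here are 8 genes of the 27998 listed in both matrices: S100a4, S100a6, S100a8, S100a9, S100a10, S100a11, Lgals1 and Lgals3. They were taken by gene symbol and read in all 4331 barcodes with at least 500 detected genes. The barcodes came from livers of wild-type C57BL/6 mice of 7 to 10 weeks, sorted through 2 gates and run as 1 droplet library each, with unique molecular identifiers (UMIs) counted per gene and barcode. The LSM gate was CD45+Lin-Sca-1+Mac-1+, and the other was CD45+Lin-CD122+CD49a+. All cells therefore carried the leukocyte antigen CD45 and lacked the lineage antigens, whose names the sources used here do not list. The LSM library kept 3074 barcodes with a median of 5100.5 UMIs, and the CD122+CD49a+ library kept 1257 with a median of 1461 UMIs. Each gate had 1 library, so no difference could be set against the spread between replicates and nothing was tested. Levels are UMIs scaled to a class total of 1000000 (CPM), and all intervals are exact 95% intervals that cover counting error only.

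S100 proteins are small calcium-binding proteins of the EF-hand type that mostly act as dimers, inside the cell on partners such as annexins and the cytoskeleton, and outside it as signals. S100A8 and S100A9 together form calprotectin, a major cytosolic protein of neutrophils and of inflammatory monocytes. Galectins bind beta-galactoside sugars on glycoproteins. Galectin-1 (Lgals1) is known for effects on T cells, and galectin-3 (Lgals3) is known from macrophages and other myeloid cells.

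All 6 S100 members lie on chromosome 3 in GRCm38, and each is annotated as a protein-coding gene in GENCODE M21. Gaps are given between members, and other genes within them were not listed. S100a4 (90603771 to 90606045, plus strand) is followed 6.84 kb on by the next member, S100a6 (90612882 to 90624181, plus strand). S100a8 (90668978 to 90670035, plus strand) lies 44.8 kb beyond S100a6, and S100a9 (90692632 to 90695721, minus strand) 22.6 kb beyond S100a8. S100a11 (93520488 to 93526287) and S100a10 (93555080 to 93564643), both on the plus strand, form a separate pair with 28.8 kb between them. Lgals1 is on chromosome 15 (78926725 to 78930465) and Lgals3 on chromosome 14 (47367751 to 47386160), both on the plus strand. The predicted gene Gm42674 overlaps exons of S100a4 on the same strand and held 0 UMIs in both libraries.

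The start-site windows of the 4 members from S100a4 to S100a9 are shown because the first pair had similar orders of level across the classes while the second pair was almost without UMIs. Each is a 300-base RefSeq window of GRCm38.p6 around the annotated start, written 5′ to 3′ on the gene's own strand. The windows are chr3:90603520-90603819 (plus), chr3:90612644-90612943 (plus), chr3:90668821-90669120 (plus) and chr3:90695672-90695971 (minus). Capitals mark matches on either strand to any of 4 motifs. The TATA box was searched as TATAAA. The motif of C/EBP factors, which act in granulocytes and macrophages, was searched as TTGCNNAA. The AP-1 motif, bound by Fos and Jun proteins, was searched as TGANTCA. The core of the motif of Ets factors such as PU.1 was searched as GGAAGT.
S100a4: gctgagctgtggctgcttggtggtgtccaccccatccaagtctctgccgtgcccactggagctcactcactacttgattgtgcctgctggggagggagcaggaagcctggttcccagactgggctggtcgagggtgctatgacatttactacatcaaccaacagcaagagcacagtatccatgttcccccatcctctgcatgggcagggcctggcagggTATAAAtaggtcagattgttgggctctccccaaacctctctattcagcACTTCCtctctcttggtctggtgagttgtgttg
S100a6: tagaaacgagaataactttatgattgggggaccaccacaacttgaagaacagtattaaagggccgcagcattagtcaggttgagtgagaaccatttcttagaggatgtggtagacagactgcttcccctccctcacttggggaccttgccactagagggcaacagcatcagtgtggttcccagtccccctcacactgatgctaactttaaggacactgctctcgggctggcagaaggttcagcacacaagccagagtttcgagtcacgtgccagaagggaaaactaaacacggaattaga
S100a8: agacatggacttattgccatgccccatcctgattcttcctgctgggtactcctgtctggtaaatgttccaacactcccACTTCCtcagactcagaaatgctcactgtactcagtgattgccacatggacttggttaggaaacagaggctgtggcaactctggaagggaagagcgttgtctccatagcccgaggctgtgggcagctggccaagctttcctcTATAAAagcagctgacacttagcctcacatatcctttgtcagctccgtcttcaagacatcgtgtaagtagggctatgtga
S100a9: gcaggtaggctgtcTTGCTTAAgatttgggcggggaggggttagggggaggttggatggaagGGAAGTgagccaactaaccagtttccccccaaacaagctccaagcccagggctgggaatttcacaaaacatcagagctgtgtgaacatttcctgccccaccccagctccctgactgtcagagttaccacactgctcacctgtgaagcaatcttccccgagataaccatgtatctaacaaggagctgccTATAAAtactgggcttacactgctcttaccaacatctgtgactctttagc
S100a4, S100a8 and S100a9 held 1 TATAAA each, found in 13.62% of all 32851 windows of that length, and 1 GGAAGT each, found in 23.77%. S100a9 also held 1 match to TTGCNNAA, found in 10.8% of windows. S100a6 held none of the 4 motifs, and neither did Lgals3. S100a11 held 2 matches to TGANTCA, found in 7.808% of windows, and 1 GGAAGT. Windows were found for 6 of the 8 members, without S100a10 and Lgals1. A match describes letters in a window and is not evidence of binding.

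Classes were set by marker UMIs that do not include the members: a barcode joined the list with most different markers detected, given at least 2 and no tie. In the LSM library 12 classes had at least 30 barcodes: lymphoid progenitor-like (464), Cd209a dendritic cell (DC)-like (357), nonclassical monocyte-like (335), cDC1-like (324), plasmacytoid DC-like (214), mature DC-like (167), basophil and mast cell-like (121), T and innate lymphocyte-like (87), plasma cell-like (81), stem and multipotent progenitor-like (68), Kupffer cell and macrophage-like (47), and 110 barcodes chosen by the classical monocyte list. The last had only Ly6c2 of that list among its 10 leading genes, so it stays unnamed and is called the Ly6c2 class. Of its 110 barcodes 92 held just 2 markers, and 18 remained in it when 3 markers were required. In the CD122+CD49a+ library 5 classes reached that size: T and innate lymphocyte-like (746), cDC1-like (148), Cd209a DC-like (69), nonclassical monocyte-like (45) and classical monocyte-like (33). The lists left 22.28% of LSM and 14.16% of CD122+CD49a+ barcodes unassigned. Of the assigned, 35.96% and 17.52% held just 2 markers or led by 1 marker. Barcodes with no marker of another class numbered 1 of 464 lymphoid progenitor-like, 4 of 357 Cd209a DC-like and 0 of 68 stem-like in LSM. They numbered 167 of 335 in LSM nonclassical monocyte-like and 194 of 746 in CD122+CD49a+ lymphocyte-like barcodes. Classes are therefore ranges of marker content and may be mixed, not only at their edges. The LSM Kupffer cell and macrophage-like class is written Kupffer-like below. C1qa was in 47, C1qb in 45 and C1qc in 46 of its 47 barcodes. Clec4f was in 13 of them, Cd5l in 9, Vsig4 and Timd4 in 7 each and Marco in 3. The short name therefore does not mark each barcode as a Kupffer cell. The libraries shared 2 of the kept barcode sequences.

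S100a8 and S100a9 were close to absent from both libraries. In the LSM library S100a8 had 1 UMI and S100a9 had 1 UMI among 16187182. In the CD122+CD49a+ library S100a8 had 1 UMI and S100a9 had 0 among 2351659. Together the pair stood at 0.124 CPM in the LSM library (upper bound 0.446) and at 0.425 CPM in the CD122+CD49a+ library (upper bound 2.37), and both values are at or under what 3 counts give, 0.185 and 1.28 CPM. No fold between the libraries is given for either gene. The barcodes under the gene minimum, 59 in the LSM and 398 in the CD122+CD49a+ library, held 0 UMIs of both genes. They held only 38888 and 280644 UMIs in all, so the upper bounds for each gene were 94.9 and 13.1 CPM. These bounds lie far above the levels in the kept barcodes, so the 0 says little.

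The 3 UMIs lay in 3 different barcodes. The LSM S100a8 UMI was in a Kupffer cell and macrophage-like barcode of 7064 UMIs, and the LSM S100a9 UMI was in a basophil and mast cell-like barcode of 2628 UMIs. The S100a8 UMI of the CD122+CD49a+ library was in a classical monocyte-like barcode of 796 UMIs, which also held the neutrophil collagenase gene Mmp8. No barcode held both genes and none held more than 1 UMI of either. In the CD122+CD49a+ library, where S100a9 had 0 UMIs, 0 of 1257 barcodes allows a share with a UMI of up to 0.239% by the limit of 3 counts, and the exact interval ends at 0.293%.

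Neutrophil markers were measured beside the pair. Ly6g, Camp and Ngp were at 0 in both libraries, and no barcode of either library held 2 different markers of the 12 on the list or joined the neutrophil class. In the LSM library the list had 105 barcodes with 1 marker, and Cxcr2, a chemokine receptor, gave 157 of the UMIs, 65 of them in lymphoid progenitor-like barcodes. Retnlg had 26 UMIs there, 25 of them in 1 basophil and mast cell-like barcode. In the CD122+CD49a+ library 115 barcodes had 1 marker, and the gelatinase gene Mmp9 gave 157 UMIs, 154 of them in T and innate lymphocyte-like barcodes. Of the pair, 0 of 2 LSM UMIs and the 1 CD122+CD49a+ UMI lay in barcodes with a marker. With so few UMIs a ratio of S100a8 to S100a9 by class could not be given. No class held more than 1 UMI of the pair, and whether the 3 UMIs came from free RNA or from the barcodes' own cells was not tested.

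The other 6 members were abundant, and each had its own order of classes. The LSM library held 28702 UMIs of S100a6, 21657 of S100a4, 16132 of S100a10, 15444 of Lgals1, 15220 of S100a11 and 13489 of Lgals3. Between the highest and lowest LSM class the level differed from 9.60-fold for S100a11 to 77.2-fold for Lgals3, and no class was highest for more than 2 of the genes.

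**Figure D1:**
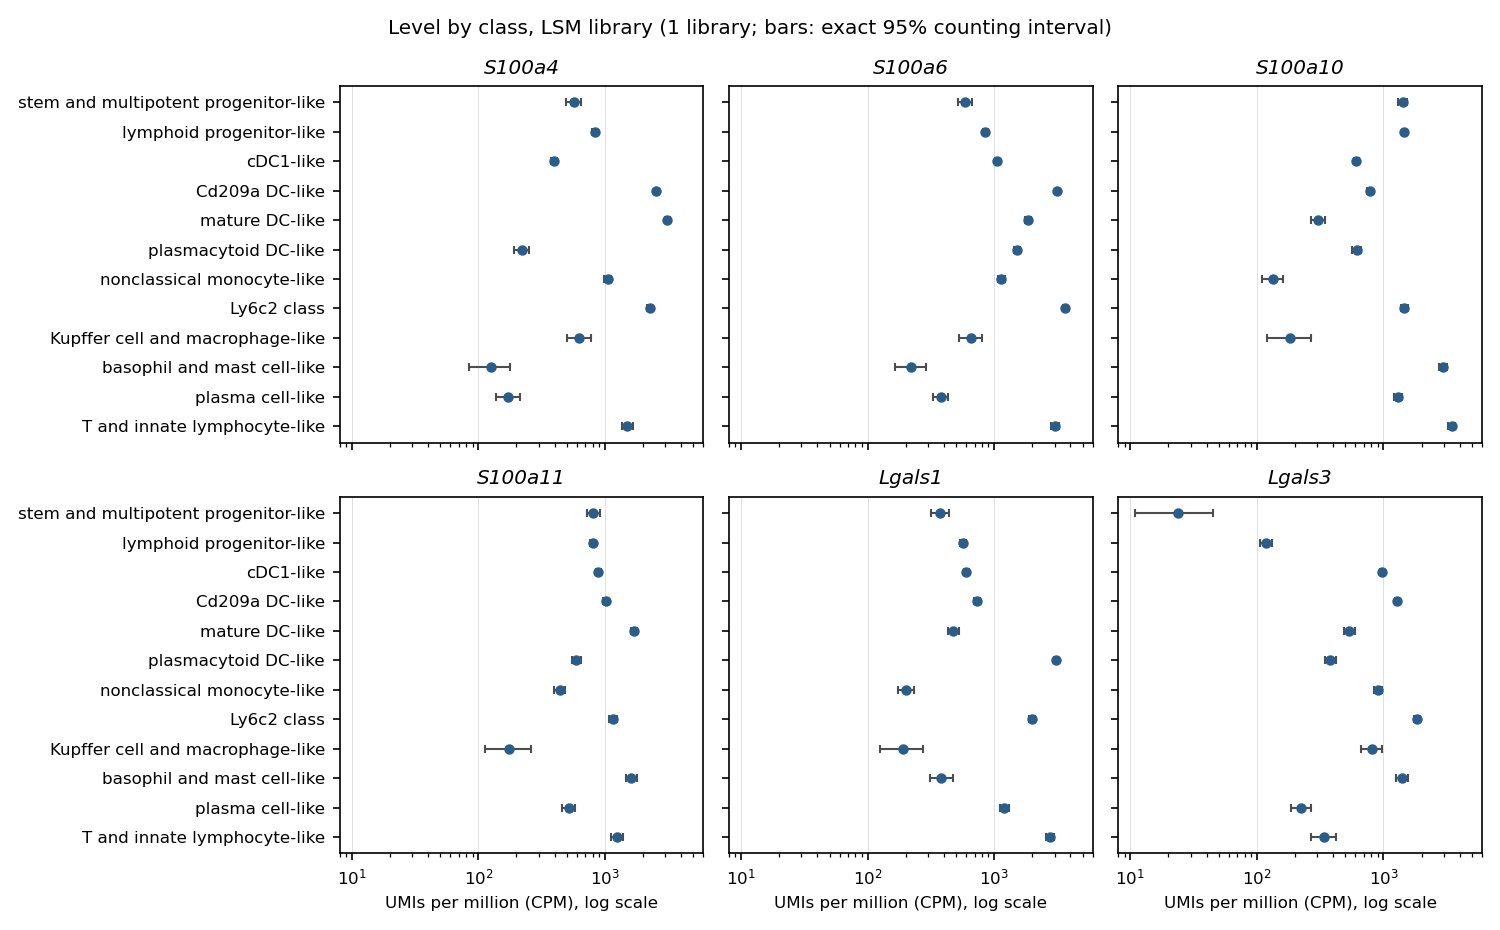
Level of 6 members (CPM, log axis) in the 12 classes of the LSM library, with points for the class sum and bars for the exact 95% counting interval. S100a4 ran from 125 CPM in basophil and mast cell-like to 3106 CPM in mature DC-like barcodes, while S100a10 had its highest values in lymphocyte-like and basophil and mast cell-like barcodes.

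S100a4, known as a marker of motile and memory cells that binds non-muscle myosin, was highest in mature DC-like barcodes at 3106 CPM (2982 to 3235). Cd209a DC-like barcodes followed at 2540 CPM, the Ly6c2 class at 2251 CPM and lymphocyte-like barcodes at 1505 CPM, and each of these intervals was apart from the next. In the middle stood nonclassical monocyte-like (1050 CPM), lymphoid progenitor-like (830.4 CPM), Kupffer-like (625.2 CPM) and stem-like barcodes (568.6 CPM), where the last pair overlapped. The low end held cDC1-like (396 CPM), plasmacytoid DC-like (220.2 CPM), plasma cell-like (172.8 CPM) and basophil and mast cell-like barcodes at 125 CPM (84.3 to 178), the last 3 overlapping with their neighbours. The highest was 24.9-fold (17.4 to 36.9) above the lowest. Limiting mitochondrial UMIs to 10% and removing likely doublets took 2 of the 121 basophil and mast cell-like barcodes away, and S100a4 in that class was then at 21.8 CPM, so the size of the range rests on them. The plasma cell-like level fell to 27.0 CPM when 3 markers were required.

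The S100a4 level of the basophil and mast cell-like and Kupffer-like classes came from few barcodes, whereas 192 of 324 cDC1-like barcodes (59.3%) held it. The cDC1-like counts were uneven too, with a median of 1 UMI and 56.9% of the UMIs in 10% of the barcodes. Of the 121 basophil and mast cell-like barcodes, 6 held S100a4 (4.96%, median depth 1891 UMIs), and 1 of them held 25 of the 30 UMIs. In mature DC-like barcodes 160 of 167 (95.8%, median depth 4218 UMIs) held it, with a median of 13 UMIs. After thinning each barcode to 1000 UMIs the shares were 3.33% and 82.6%. In the Kupffer-like class 7 of 47 barcodes held all 89 S100a4 UMIs, and these 7 had a median of 7064 UMIs and of 4 markers of other classes, against 2263.5 UMIs and 3 markers in the 40 without it. The part of mixed barcodes in that level was not tested. The 685 unassigned LSM barcodes had 1818 CPM of S100a4, which was among their 10 leading genes.

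S100a6, also called calcyclin and the next member on the chromosome, had a similar order. It was highest in the Ly6c2 class at 3618 CPM (median of 20 UMIs per barcode), followed by Cd209a DC-like (3136 CPM) and lymphocyte-like barcodes (3031 CPM), whose intervals overlapped. Basophil and mast cell-like barcodes were again lowest at 220.8 CPM, and the range was 16.4-fold (12.5 to 22.0). Plasmacytoid DC-like barcodes separated the pair: they held 1513 CPM of S100a6 with UMIs in 87.4% of barcodes, and 220.2 CPM of S100a4 with UMIs in 22.9%. Across the 12 classes Pearson's r of log2(CPM + 10) between S100a4 and S100a6 was 0.81, and it was 0.90 across the 5 classes of the other library, where S100a10 with Lgals1 had 0.92. These points share a library, its depth and its barcodes, so r is a description. The other 14 pairs of members had r from -0.24 to 0.59 in the LSM library and from -0.57 to 0.92 in the other.

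S100a10, the light chain that holds annexin A2 in a complex and is insensitive to calcium, followed a different order. Lymphocyte-like barcodes were highest at 3454 CPM and basophil and mast cell-like barcodes second at 2949 CPM, where 120 of 121 barcodes held it. The Ly6c2 class (1465 CPM), lymphoid progenitor-like (1465 CPM), stem-like (1420 CPM) and plasma cell-like barcodes (1303 CPM) followed, and each interval overlapped that of the next of these 4. Mature DC-like barcodes, highest for S100a4, held 305 CPM of S100a10, and nonclassical monocyte-like barcodes were lowest at 133.1 CPM. The highest was 26.0-fold (21.4 to 31.8) above the lowest. S100a11, a partner of annexin A1, was the most even member. Mature DC-like (1686 CPM) and basophil and mast cell-like barcodes (1616 CPM) shared the top with overlapping intervals, most classes lay between 440 and 1245 CPM, and Kupffer-like barcodes were lowest at 175.6 CPM.

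Lgals1 was highest in plasmacytoid DC-like barcodes at 3095 CPM (2986 to 3207), where 209 of 214 barcodes held it with a median of 13 UMIs. Lymphocyte-like barcodes followed at 2758 CPM, the Ly6c2 class at 1999 CPM and plasma cell-like barcodes at 1204 CPM, each apart from the next. Nonclassical monocyte-like (201.9 CPM) and Kupffer-like barcodes (189.7 CPM) were lowest with overlapping intervals. Lgals3 stood at 1837 CPM in the Ly6c2 class, 1408 CPM in basophil and mast cell-like, 1281 CPM in Cd209a DC-like, 971.1 CPM in cDC1-like, 903.3 CPM in nonclassical monocyte-like and 807.9 CPM in Kupffer-like barcodes. Mature DC-like (535.8 CPM), plasmacytoid DC-like (379.5 CPM), lymphocyte-like (339.5 CPM) and plasma cell-like barcodes (223.2 CPM) lay below these. The progenitor classes were lowest, with 117.8 CPM in lymphoid progenitor-like and 23.8 CPM (10.9 to 45.2) in stem-like barcodes. Only 3 of 68 stem-like barcodes held an Lgals3 UMI (4.41%), and in lymphoid progenitor-like barcodes 55 of 464 did (11.9%) with 97.4% of the UMIs in 10% of the barcodes. With 3 markers required, the lymphoid progenitor-like level was 43.0 CPM. The ratio of highest to lowest was 77.2 (40.5 to 169).

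In the CD122+CD49a+ library the classical monocyte-like class, led by Fn1 and F13a1, was highest for S100a4 (1882 CPM), S100a6 (3279 CPM) and Lgals3 (1697 CPM). Both leading genes are on the list that chose the class. Of its 33 barcodes 23 held just 2 markers and 28 led by 1 marker. Requiring 3 markers left 10 barcodes and requiring 1000 genes left 7, so its name and levels rest on few barcodes. The lymphocyte-like class was highest for S100a10 (1664 CPM) and Lgals1 (1687 CPM) and lowest for Lgals3 (284.2 CPM). S100a11 was highest in cDC1-like barcodes at 1085 CPM, which were lowest for S100a4 (96.3 CPM, or 40.3 CPM with 3 markers required) and S100a6 (532.5 CPM). Nonclassical monocyte-like barcodes were lowest for S100a10 in both libraries, with 58.3 CPM (15.9 to 149) from 4 UMIs here.

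**Figure D2:**
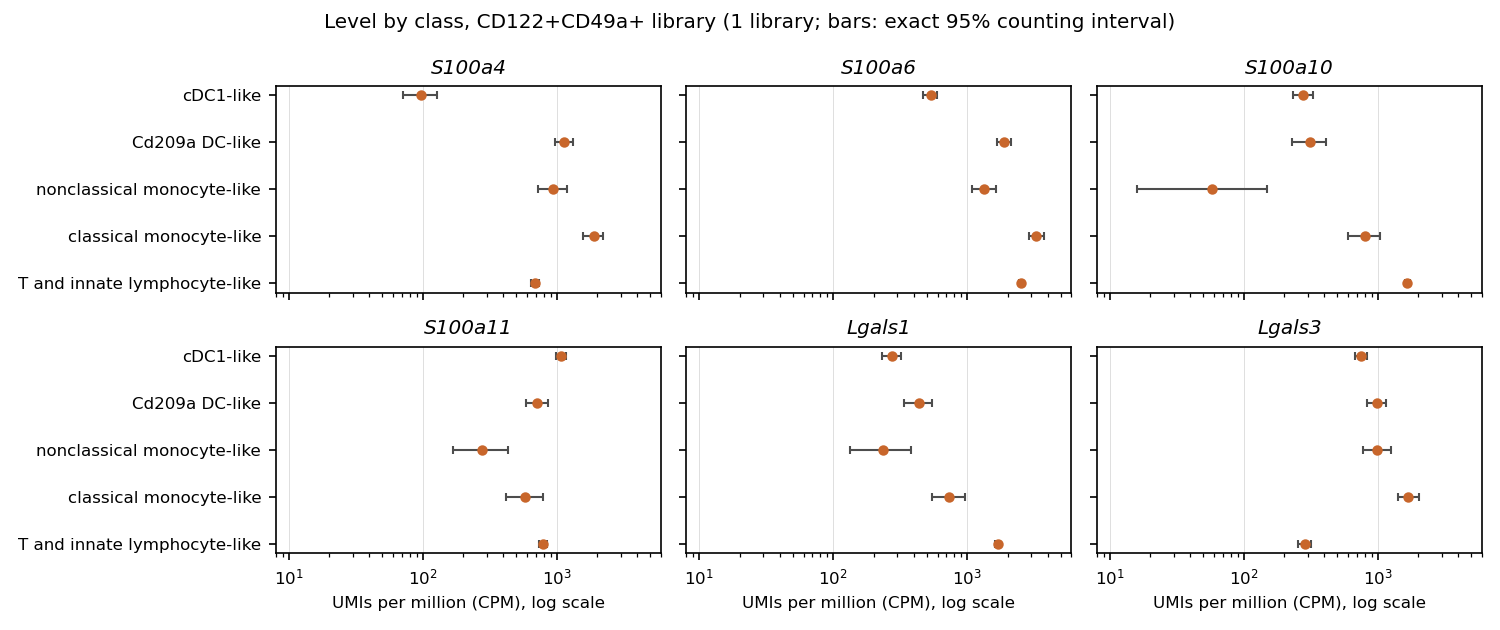
Level of 6 members (CPM, log axis) in the 5 classes of the CD122+CD49a+ library, with points for the class sum and bars for the exact 95% counting interval. The classical monocyte-like class is highest for S100a4, S100a6 and Lgals3, and S100a10 in nonclassical monocyte-like barcodes rests on 4 UMIs.

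Within the lymphocyte-like barcodes of the CD122+CD49a+ library, 5 of the 6 members stood higher in those with a Cd8a or Cd8b1 UMI than in those with a CD3 UMI and no CD8 UMI. The first group had 124 barcodes with a median of 1446 UMIs, the second had 591 with a median of 1266 UMIs, and 31 held neither. S100a4 stood at 1793 CPM with CD8 and 418.9 CPM without, a ratio of 4.28 (3.70 to 4.96). Lgals3 stood at 787.6 and 174 CPM, a ratio of 4.53 (3.61 to 5.68). The ratio was 3.10 (2.82 to 3.40) for Lgals1, 2.75 (2.55 to 2.97) for S100a6 and 1.85 (1.67 to 2.05) for S100a10. For S100a11 it was 1.11 with an interval from 0.933 to 1.30 that holds 1. So 4 of the 6 members were 2-fold or more higher with CD8 and 0 were 2-fold or more lower, against 2.64% and 12.5% of the 5643 genes with enough UMIs. Without cycling barcodes, and against all other lymphocyte-like barcodes, the S100a4 ratio was 4.43.

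In the LSM library the same split gave other directions for several members. Its lymphocyte-like class held 50 barcodes with a CD8 UMI and 32 with CD3 and no CD8. S100a4 was at 942.9 CPM with CD8 and 1865 CPM without, a ratio of 0.506 (0.396 to 0.643), and S100a10 was at 2871 and 4724 CPM, a ratio of 0.608 (0.527 to 0.701). S100a11 was also lower with CD8, with a ratio of 0.473, while S100a6 had an interval that holds 1. Lgals1 (1.68, 1.41 to 1.99) and Lgals3 (2.08, 1.26 to 3.53) were higher with CD8, as in the other library. In barcodes with no marker of another class, 7 with CD8 and 5 without, the LSM S100a4 ratio was 1.01 (0.418 to 2.55), an interval that holds both 1 and the value of the whole class.

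**Figure D3:**
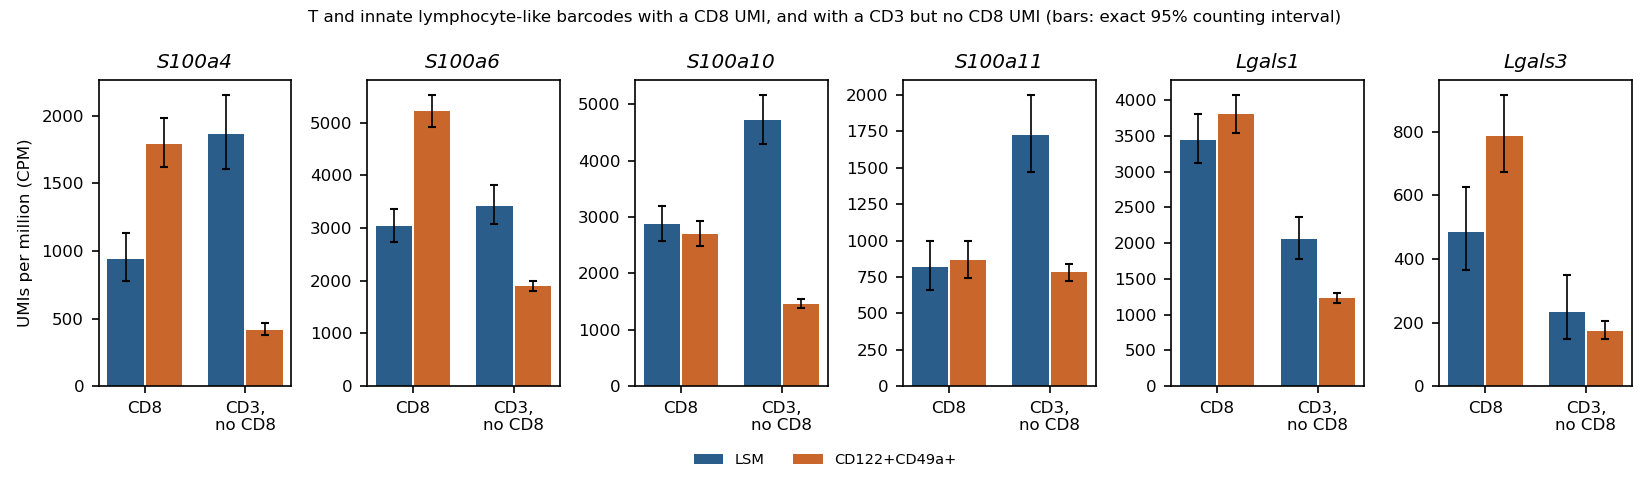
Level (CPM, linear axis from 0) of 6 members in T and innate lymphocyte-like barcodes with a CD8 UMI and with a CD3 but no CD8 UMI, in blue for LSM and orange for CD122+CD49a+, with exact 95% counting intervals. S100a4 is higher with CD8 in the CD122+CD49a+ library and lower with CD8 in the LSM library.

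Lgals1 was the member that stood higher in cycling barcodes, those with at least 3 of 10 cell-cycle genes, in each class compared. In the lymphocyte-like barcodes of the CD122+CD49a+ library Lgals1 was at 4776 CPM in 35 cycling barcodes and at 1267 CPM in the other 711, a ratio of 3.77 (3.42 to 4.15). There S100a10 had a ratio of 1.74, Lgals3 of 1.93, S100a6 of 1.52 and S100a4 of 1.24 (1.01 to 1.52), so that 1 of 6 members was 2-fold or more higher and 0 were lower by that much, against 10.2% and 9.46% of all genes compared. A CD8 UMI was held by 22.86% of cycling and 16.32% of other barcodes, and without CD8 barcodes the Lgals1 ratio was 3.96.

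In the lymphoid progenitor-like class of the LSM library, 47 cycling barcodes held 935.2 CPM of Lgals1 and the other 417 held 491.8 CPM, a ratio of 1.90 (1.69 to 2.13). The other 5 members were all lower in these cycling barcodes, with ratios from 0.466 for S100a4 to 0.580 for S100a6 and no interval holding 1. S100a4 and S100a11 (0.496) were lower by 2-fold or more, and 0 members were higher by that much, against 9.13% and 7.85% of the 7711 genes compared. Cycling barcodes were deeper, with medians of 9420 and 4847 UMIs. In 24 cycling cDC1-like LSM barcodes Lgals1 was also higher, at 904.5 against 570 CPM, and S100a4 (233 against 413.3 CPM) and S100a6 (671.5 against 1089 CPM) were lower. S100a10 was higher in these cycling barcodes, with a ratio of 1.42 (1.23 to 1.65), and the intervals of S100a11 and Lgals3 held 1.

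**Figure D4:**
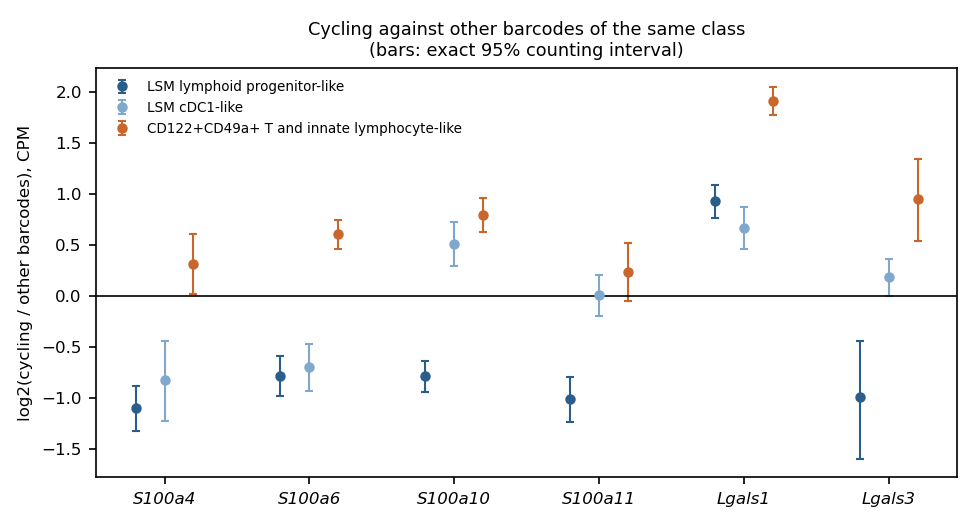
Log2 ratio of CPM in cycling over other barcodes of the same class, for LSM lymphoid progenitor-like, LSM cDC1-like and CD122+CD49a+ lymphocyte-like barcodes, with exact 95% counting intervals. Lgals1 lies above 0 in all 3 classes (0.93, 0.67 and 1.91), while S100a4 lies below 0 in both LSM classes.

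Between the libraries as wholes, S100a4 stood at 1338 CPM in the LSM and 674.8 CPM in the CD122+CD49a+ library, a ratio of 1.98 (1.88 to 2.09). The ratio was 1.37 for Lgals3, 1.17 for S100a11, 1.01 (0.965 to 1.05) for S100a10, 0.936 for S100a6 and 0.919 for Lgals1. Thus 0 of the 6 members were 2-fold or more higher in either library, against 8.47% of the 11411 genes compared that were higher in LSM and 26.4% that were higher in CD122+CD49a+. The gates hold different classes, so these whole-library values mix class and gate. TMM scaling moved every log2 ratio up by 0.44, and S100a6 (0.34) and Lgals1 (0.32) then lay on the LSM side, while the share of all genes above 0 went from 38.8% to 54.5%.

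Within classes present in both gates the members lay mostly on the LSM side, as did the median gene with at least 200 UMIs. In cDC1-like barcodes S100a4 was at 396 CPM in LSM and 96.3 CPM in CD122+CD49a+, a ratio of 4.11 (3.09 to 5.60). Lgals1 (602 and 273.1 CPM, ratio 2.20) and S100a10 (611.8 and 279 CPM, ratio 2.19) were also past 2-fold, and S100a6 was just under at 1.97 (1.74 to 2.24). Lgals3 had a ratio of 1.30, and S100a11 alone was lower in LSM, at 0.817 (0.745 to 0.898), a direction that TMM scaling brought to -0.01 on the log2 scale. So 3 of 6 members were 2-fold or more higher in LSM and 0 in CD122+CD49a+, against 11.1% and 18.5% of 7193 genes. After thinning to 1000 UMIs, S100a4 was found in 20.4% of LSM and 7.64% of CD122+CD49a+ cDC1-like barcodes. The CD122+CD49a+ level came from 49 UMIs, with 83.7% of them in 10% of the barcodes, against 56.9% in LSM. Only 2 LSM and 7 CD122+CD49a+ barcodes had no marker of another class, and 1 of the 6 was past 2-fold in them.

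In Cd209a DC-like barcodes S100a4 (2540 and 1134 CPM, ratio 2.24) and S100a10 (778.2 and 312.3 CPM, ratio 2.49) were 2-fold or more higher in LSM, 2 of 6 members against 6.45% of 6346 genes. All 6 ratios were above 1, from 1.31 for Lgals3, and 0 members were 2-fold higher in CD122+CD49a+, against 30.3% of genes. Limiting the class to barcodes with no marker of another class left 4 LSM barcodes and 1 CD122+CD49a+ barcode, too few to describe it, and S100a4 was at -0.24 on the log2 scale in them. In nonclassical monocyte-like barcodes S100a10 alone was past 2-fold, at 2.28 with an interval from 0.868 to 8.51, so 1 of 6 stood against 6.76% of 4616 genes and 0 of 6 against 22.1% in the other direction. S100a4 (1.13), S100a6 (0.845), Lgals1 (0.865) and Lgals3 (0.911) had intervals that hold 1 there, and with TMM scaling all 6 lay on the LSM side.

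In lymphocyte-like barcodes S100a4 (1505 and 689.3 CPM, ratio 2.18) and S100a10 (3454 and 1664 CPM, ratio 2.08) were past 2-fold, 2 of 6 members against 7.09% of 6323 genes, and 0 were 2-fold higher in CD122+CD49a+, against 21.9%. This class had different contents in the gates, so the subclasses were compared on their own. Among barcodes with a CD8 UMI, S100a4 was lower in LSM with a ratio of 0.526 (0.422 to 0.651), S100a6 had 0.582, Lgals3 had 0.615, and the intervals of S100a10, S100a11 and Lgals1 held 1. Among those with CD3 and no CD8, S100a4 had a ratio of 4.45 (3.71 to 5.33), S100a10 of 3.24, S100a11 of 2.21, S100a6 of 1.81 and Lgals1 of 1.67. The class value of S100a4 is thus a sum over subclasses that differed in opposite directions.

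The shares of all genes depend on the UMI minimum. Among genes with at least 200 UMIs, closer to the members' own counts, 16.5% were 2-fold or more higher in LSM in cDC1-like, 17.5% in Cd209a DC-like, 16.5% in nonclassical monocyte-like and 7.53% in lymphocyte-like barcodes. In the other direction the shares at that minimum were 4.47%, 7.79%, 7.18% and 13.6% in the same order, well under those at 20 UMIs, so 0 of 6 members in that direction is near these shares. The median log2 ratio of genes with at least 200 UMIs was 0.35, 0.36, 0.31 and 0.07 in these classes. It was -0.05, -0.50, -0.43 and -0.30 for genes with at least 20 UMIs, and 1.06, 0.75, 0.02 and 0.68 for the 6 members. TMM scaling raised the log2 ratios by 0.28, 0.73, 0.66 and 0.10 in these classes. The share of all genes above 0 then went from 48.4% to 59% in cDC1-like, from 32.5% to 59% in Cd209a DC-like and from 32.3% to 60.1% in nonclassical monocyte-like barcodes.

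Transcript length moved with the ratio between the libraries. Over all barcodes the median log2 ratio of LSM over CD122+CD49a+ was 0.32 in the shortest of 5 equal groups of genes and -0.95 in the longest, and in cDC1-like barcodes it was 0.43 and -0.73. All 8 members lie in the shortest group, with longest annotated transcripts from 498 bases for S100a4 to 1419 for Lgals3. Against the median of their length group, 1 of 6 members was past 2-fold in cDC1-like, 1 in Cd209a DC-like and 0 in lymphocyte-like barcodes. No share of all genes past 2-fold after this scaling is given, so these counts have no background beside them. The libraries also differed in depth, and in mitochondrial share with medians of 1.37% for LSM and 2.79% for CD122+CD49a+. The part of length, depth and RNA quality in the members' ratios was not tested, and with 1 library per gate they cannot be told apart from the gate.

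**Figure D5:**
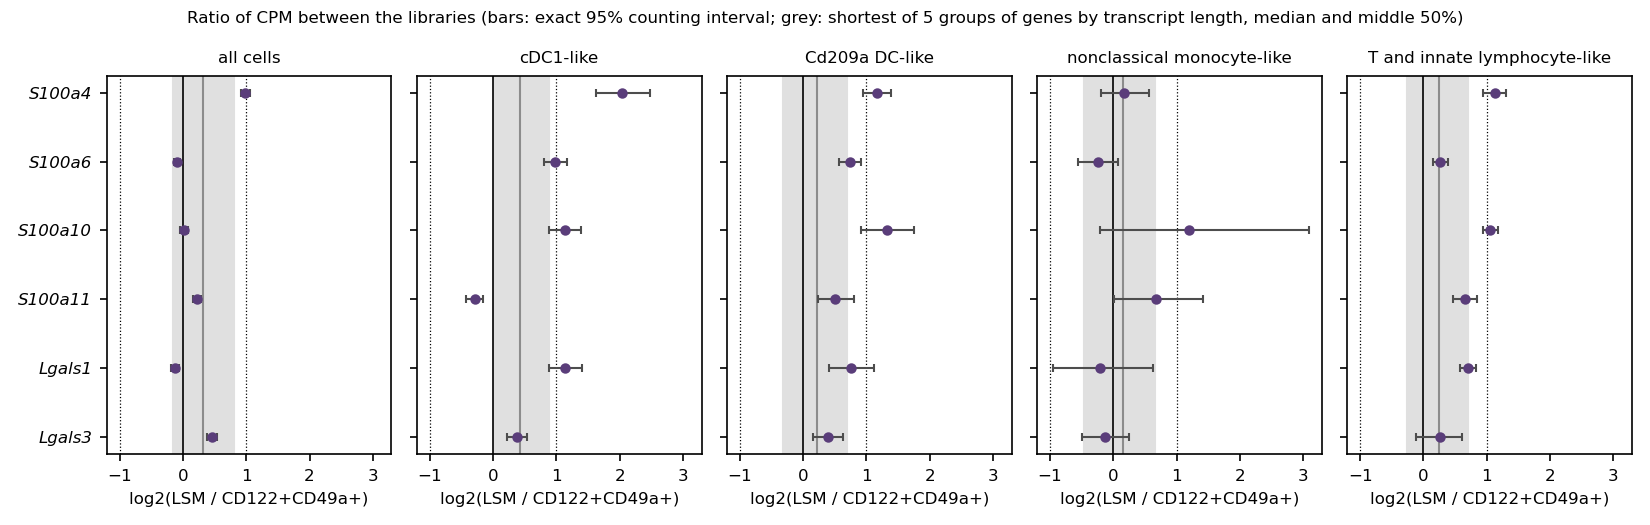
Log2 ratio of LSM over CD122+CD49a+ CPM for 6 members in all cells and in 4 classes, with exact 95% counting intervals. The grey line and band are the median and middle 50% of the shortest of 5 groups of genes by transcript length, and dotted lines mark 2-fold. S100a4 in cDC1-like barcodes lies farthest from 0, at 2.04.

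Other genes of the families and their partners were read in the same classes. Of 9 other S100 genes, S100a13 alone passed 100 CPM in a class, with 729.4 CPM in LSM and 402.4 CPM in CD122+CD49a+ lymphocyte-like barcodes, its highest class in both. Of 9 other galectin-related genes, 8 had a row and Lgals3bp, which encodes a galectin-3 binding protein, alone passed 100 CPM, with 105.4 CPM in LSM Kupffer-like and 213.9 CPM in CD122+CD49a+ classical monocyte-like barcodes. Of 5 partners and receptors, Anxa2, Anxa1 and Ahnak passed it. Anxa2, which encodes the partner of S100a10, was highest in LSM mature DC-like barcodes at 1280 CPM, where S100a10 was at 305 CPM. Anxa1 was highest in LSM basophil and mast cell-like barcodes at 574.8 CPM, where S100a11 was second highest. In LSM mature DC-like barcodes, where S100a11 was highest at 1686 CPM, Anxa1 was lowest at 18.6 CPM. Ager and Tlr4, receptors for calprotectin, had 9 and 34 UMIs in the LSM library.

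Among 4242 genes with at least 50 CPM in a class, those whose pattern over the 12 LSM classes was most like a member's were taken by Pearson's r of log2(CPM + 10). For S100a4 they included Traf1 (0.85) and Coq10b (0.84), and for S100a6 they were Ahnak (0.87), Dtx3l (0.85) and Itpr1 (0.84). For S100a10 they included Tbc1d10c (0.86) and Trp53i13 (0.84), and for S100a11 they were Cnn2 (0.84), Atg12 (0.80) and Tnfrsf18 (0.80). For Lgals1 they included Oaz1 and Cox8a (0.85 each), and for Lgals3 they were Arpc5 (0.87), Slfn2 (0.85) and Capzb (0.85). None of the members was the closest gene to another, and with 12 points from 1 library these values are descriptions.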

How the data were processed

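The authors deposited gene by barcode matrices of UMI counts, raw whole numbers, and per the file headers the matrix software was 3.0.1. Per the submitters' processing notes, GRCm38, STAR and Seurat 2.3.0 were used, in roles not stated. The sources used here do not say how barcodes were chosen. The members, marker lists and comparisons were chosen with earlier results of these data known. Barcodes with at least 500 detected genes were kept (4331). Classes came from 17 marker lists by the rule in the text. Named genes are all members, listed relatives over 100 CPM in a class, and the 3 most alike genes per member, some of which are not reported here. Counts were summed per class and scaled to CPM, with exact Poisson, Clopper-Pearson and conditional binomial intervals (scipy 1.17.1), since 1 library per gate allows no test. Of 27998 gene identifiers, 27645 (98.74%) were found in GENCODE M21. A ratio of 2 or more was called, over genes with at least 20 UMIs in both groups together. Scrublet's automatic threshold (scanpy 1.11.5) marked 0.423% and 0.398% of barcodes, so doublets were kept, and the highest-scored 76 and 13 were removed in 1 alternative. The alternatives were TMM (edgeR 4.0.16), means over barcodes, other gene, marker and mitochondrial limits, and, added after the data were seen, removal of cycling barcodes and scaling by transcript length. The scripts were tested on simulated data. UMI counts mark molecules, so intervals leave out spread between animals and droplets.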

Additional observations from a re-analysis of the deposited data

Results flagged for a closer look

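Members whose contrast went opposite ways between libraries or classes, with neither interval holding 1, are given here, and these differences were not tested. Between CD8-transcript and CD3-transcript lymphocyte-like barcodes without CD8, S100a4 had a ratio of 0.506 in the LSM and 4.28 in the CD122+CD49a+ library. S100a10 had 0.608 and 1.85. In LSM barcodes with no marker of another class, 7 with CD8 and 5 without, the S100a4 ratio was 1.01 (0.418 to 2.55). There S100a10 had 0.326 (0.201 to 0.518). Between cycling and other barcodes, S100a4 had a ratio of 0.466 in LSM lymphoid progenitor-like, 0.564 in LSM cDC1-like and 1.24 in CD122+CD49a+ lymphocyte-like barcodes. S100a6 had 0.580, 0.617 and 1.52 in the same order. S100a10 had 0.578, 1.42 and 1.74, so that it went opposite ways within the LSM library. Lgals3 had 0.502, 1.13 and 1.93, where the interval of the cDC1-like value held 1.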

How the results depend on the processing

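The number of the 6 members past 2-fold between the libraries is small (0 in all cells, 3 in cDC1-like, 2 in Cd209a DC-like, 1 in nonclassical monocyte-like and 2 in lymphocyte-like barcodes), so single members near 2-fold change it. With TMM scaling it was 1 in all cells, 2 in nonclassical monocyte-like and 6 in Cd209a DC-like barcodes, against 19.1%, 20.4% and 23.6% of all genes. With at least 1000 genes per barcode it was 1 in all cells, 0 in nonclassical monocyte-like, 1 in Cd209a DC-like and 1 in lymphocyte-like barcodes. This left 191 LSM and 10 CD122+CD49a+ nonclassical monocyte-like, 348 and 24 Cd209a DC-like, and 31 and 49 lymphocyte-like barcodes. S100a8 with S100a9 then had 1 UMI in LSM and 0 in CD122+CD49a+. For this setting and those below no share of all genes is given, so the member counts have no background beside them. With at most 10% mitochondrial UMIs and without likely doublets the number past 2-fold was 0 in nonclassical monocyte-like and 1 in lymphocyte-like barcodes. With 3 markers it was 0, 1 and 1 in nonclassical monocyte-like, Cd209a DC-like and lymphocyte-like barcodes. With no marker of another class it was 1, 0, 1 and 1 in cDC1-like, nonclassical monocyte-like, Cd209a DC-like and lymphocyte-like barcodes, but this left 2 and 7, 167 and 14, 4 and 1, and 12 and 194 barcodes of the LSM and CD122+CD49a+ libraries, so the cDC1-like and Cd209a DC-like counts say little. Without cycling barcodes it was 1 in all cells. Relative to genes of like transcript length it was 1, 1 and 0 in cDC1-like, Cd209a DC-like and lymphocyte-like barcodes. Counting barcodes with at least 1 neutrophil marker put 1 CD122+CD49a+ UMI of the pair in them, and 0 remained without them. A pair of ratios changed sign. S100a10 in nonclassical monocyte-like barcodes went to -0.02 (log2, at least 1000 genes, 191 against 10 barcodes). The whole CD122+CD49a+ nonclassical monocyte-like class held 4 S100a10 UMIs, so this change rests on few counts. S100a4 in Cd209a DC-like barcodes went to -0.24 (log2, no marker of another class, 4 against 1 barcodes). The cause was not tested. The highest LSM class of Lgals1 became lymphocyte-like with at least 1000 genes, at 3132 CPM in 31 barcodes, close to 3105 CPM in plasmacytoid DC-like barcodes. That of S100a6 became Cd209a DC-like with 3 markers, where the Ly6c2 class kept 18 barcodes. No paired analysis was possible because each gate has 1 library. The shallower CD122+CD49a+ library limits all low values: 3 counts equal 1.28 CPM there and 0.185 CPM in LSM.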
